A study of Mus musculus with 4 samples.

Results

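The genes described here are 10 that macrophages use to handle iron and heme: Spic, Slc40a1, Hmox1, Tfrc, Vcam1, Blvra, Blvrb, Slc48a1, Ftl1 and Fth1. They were picked by symbol from the 22026 genes listed in each library, and all 10 passed the minimum mean level that 11851 genes passed. The choice was made with their differences between genotypes known, so those differences are given as a description, with no test. RNA was measured in 4 libraries of bone marrow derived macrophages from C57BL/6 mice aged 8 weeks, grown for 3 days in CMG14-12 supernatant, a source of M-CSF equivalent to 20 ng/ml. One group of 2 libraries came from wildtype controls (WT). The other group of 2 came from RBP-J KO mice of genotype Rbpj f/f;LysM cre, in which Cre under the lysozyme M promoter of myeloid cells deletes Rbpj. The labels do not say whether the controls carry the floxed allele or Cre, or whether a library is 1 mouse. RBP-J is the DNA-binding protein of the Notch pathway, and the study set macrophages without it beside controls.

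Macrophages take in iron both as transferrin-bound iron through the transferrin receptor and as heme from engulfed red blood cells. Heme is moved out of the phagolysosome, split by heme oxygenase into iron, carbon monoxide and biliverdin, and the freed iron is either stored in ferritin or exported through ferroportin. In the spleen this recycling is done by red pulp macrophages, whose development needs the transcription factor Spi-C and which carry the adhesion molecule VCAM-1. Heme raises Spic by removing the repressor Bach1.

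Values are FPKM, read fragments per unit of transcript length and of library size, as the authors deposited them. The libraries are compared inside each replicate number, so that pair 1 is WT replicate 1 with RBP-J KO replicate 1 and pair 2 is WT replicate 2 with RBP-J KO replicate 2; where values are given by pair, WT comes first. Rbpj was at 355 and 573 FPKM in WT against 51.5 and 77 FPKM in RBP-J KO. The X-inactivation transcript Xist was listed at 0 in pair 1 but reached 268 and 290 FPKM in pair 2, while the Y-linked Ddx3y was at 193 and 174 FPKM in pair 1 and listed at 0 in pair 2, so that the pairs differ in the sex these genes show. Of the macrophage markers, 10 of 10 were above 0 in every library, with Cd68, a lysosomal glycoprotein of macrophages, at 5173 FPKM or more in each.

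Of the 10 genes, 3 were at least 1.5-fold higher in RBP-J KO in both pairs (Spic, Slc40a1 and Vcam1) and 2 were at least 1.5-fold lower in both (Hmox1 and Tfrc). Among all 11851 genes tested, 3.86% were that much higher and 3.63% that much lower in both pairs. The remaining 5 were under that size in at least 1 pair. At any size, 4 of the 10 were higher and 6 lower in both pairs, where 25.1% and 34.1% of all genes tested were. Both RBP-J KO libraries lay above both WT libraries for 3 of the 10 genes and below them for 6, against 11.7% and 18.2% of all genes tested, and for Blvrb alone the groups overlapped. The median log2 difference of the 10 genes was -0.22 in pair 1 and -0.23 in pair 2, beside -0.05 and -0.02 for all genes tested. In RNA of whole cultures, fewer cells of a type and less RNA per cell cannot be told apart. Of 11 neutrophil markers tested, 8 were higher in RBP-J KO in both pairs and 4 of these (the granule genes Elane, Mpo, Prtn3 and Ctsg) by at least 1.5-fold, while Ngp, Ltf and Mmp8 were lower in pair 1. Their median log2 difference was 0.31 in pair 1 and 1.91 in pair 2. Dendritic cell markers summed to 31.3 and 172 FPKM in pair 1 but to 42.4 and 25.1 FPKM in pair 2; Itgax, with the highest mean, was at 24.1 and 95.1 FPKM in pair 1, then 40.0 and 22.4 FPKM in pair 2, and of the 6 tested only Flt3 was at least 1.5-fold higher in both pairs. Lymphoid markers summed to 25.8 and 47.8 FPKM in pair 1 and to 6.93 and 25.9 FPKM in pair 2, where Cd79b was the one gene of the list above 0; of the 5 tested it alone was at least 1.5-fold higher in both pairs. The part of these cells in the differences of the 10 genes was not tested.

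**Figure D1:**
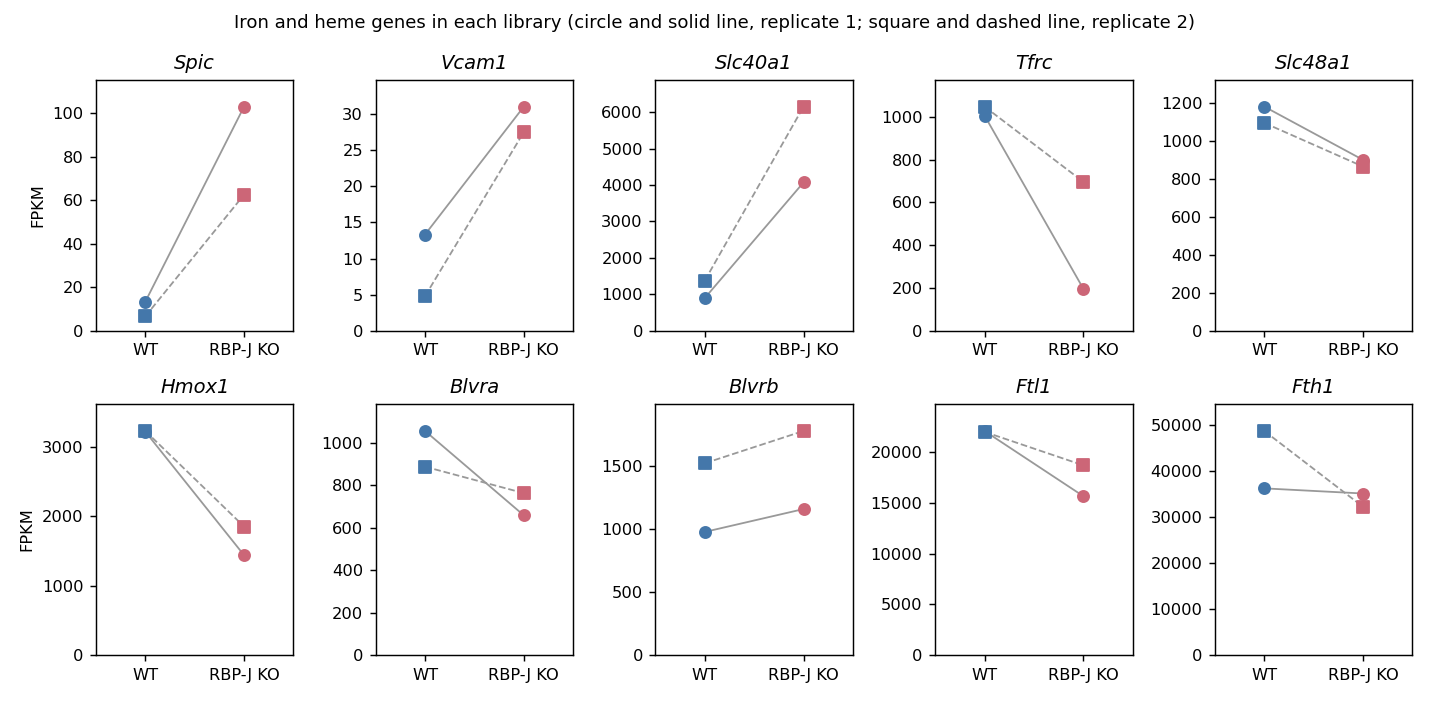
FPKM (y axis, linear from 0) of the 10 genes in WT and RBP-J KO, 1 panel per gene; circles and solid lines are replicate 1, squares and dashed lines replicate 2, and each point is 1 library. Spic, Vcam1 and Slc40a1 are higher in both RBP-J KO libraries, Tfrc and Hmox1 are lower in both, and in Tfrc the replicate 1 line is much the steeper.

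Spic was low in WT, at 13.3 and 6.54 FPKM, and stood at 103 and 62.5 FPKM in RBP-J KO. Both RBP-J KO libraries were well above both WT libraries, by 7.77-fold in pair 1 and 9.56-fold in pair 2. The log2 differences of 2.87 and 3.08 ranked 47 from the highest in pair 1 and 23 from the highest in pair 2 among the 11851 genes. On the scale of FPKM, Spic stood at rank 9562 in WT and 4319 in RBP-J KO of 22026 genes in pair 1, and at 10241 and 5751 in pair 2. The gene lies on the minus strand of chromosome 10 (GRCm38, chr10:88674772-88685015).

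Vcam1 encodes the adhesion molecule that red pulp macrophages display and that stromal and endothelial cells also make (GRCm38, chr3:116109949-116129688, minus strand). It was at 13.3 and 4.78 FPKM in WT against 31.1 and 27.5 FPKM in RBP-J KO. The RBP-J KO libraries were alike, whereas the WT libraries differed by 2.79-fold, so that the ratio was 2.33 in pair 1 and 5.76 in pair 2. Over both groups the fitted difference was 3.32-fold; it was 5.23-fold without WT replicate 1 and 2.11-fold without WT replicate 2. Markers of stromal and endothelial cells were low, with 8 of 11 above 0 in any library and Lepr, Dcn and Tek listed at 0 in all 4. Their summed level was 8.86 to 55.8 FPKM in WT and 18.5 to 128 FPKM in RBP-J KO. Of the 5 that were tested, 2 were higher and 3 lower in both pairs, and their median log2 difference was -0.22 in pair 1 and -0.49 in pair 2. Most of the sum was Kdr, an endothelial growth factor receptor, at 36.2 and 114 FPKM in pair 1, then 6.2 and 17.2 FPKM in pair 2. Sparc, a matrix protein, went the other way, from 5.94 to 2.33 FPKM in pair 1 and from 1.21 FPKM to a listed 0 in pair 2. The part of such cells in the Vcam1 difference was not tested.

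Slc40a1 encodes ferroportin, the exporter through which cells release iron to the plasma (GRCm38, chr1:45908068-45926523, minus strand). It was at 895 and 1374 FPKM in WT against 4076 and 6159 FPKM in RBP-J KO. The ratio was nearly the same inside the pairs, 4.56 in pair 1 and 4.48 in pair 2, although both replicate 2 libraries were above their replicate 1 counterparts, by 1.54-fold in WT and 1.51-fold in RBP-J KO. With these levels Slc40a1 went from rank 399 to rank 45 of 22026 genes in pair 1 and from rank 217 to rank 22 in pair 2. Of the genes described here, only the 2 ferritin genes had a higher FPKM in the RBP-J KO libraries.

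Tfrc encodes transferrin receptor 1, which brings iron into the cell and is abundant in dividing cells (GRCm38, chr16:32608920-32632794, plus strand). Its level was almost equal in the WT libraries, at 1006 and 1048 FPKM, and unequal in RBP-J KO, at 196 and 696 FPKM. Both RBP-J KO libraries lay below WT, by 5.14-fold in pair 1 and 1.51-fold in pair 2. The difference of 2.77-fold over both groups was 1.47-fold without RBP-J KO replicate 1 and 5.22-fold without RBP-J KO replicate 2. In pair 2 it was just past 1.5-fold as deposited, and was 1.36-fold after quantile normalization and 1.43-fold after upper-quartile scaling.

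The 19 proliferation genes listed also differed between the pairs. Their median log2 difference was -1.39 in pair 1, with a range of -2.21 to -0.13, and 0.21 in pair 2, with a range of -0.12 to 0.48. Pcna, the sliding clamp of DNA replication, was at 1591 and 1042 FPKM in pair 1, then 1076 and 993 FPKM in pair 2. Mki67, which dividing cells express and which was named after its values had been seen, was at 318 and 85.9 FPKM in pair 1, then 184 and 185 FPKM in pair 2. In pair 2 Tfrc was thus lower in RBP-J KO by 0.59 (log2) while Pcna alone of the 19 proliferation genes was lower. The part of proliferation in the Tfrc difference was not tested. Erythroid markers, from a lineage that is rich in Tfrc, summed to at most 8.17 FPKM in WT, against 15.9 FPKM in RBP-J KO, and 7 of the 13 with an entry, Alas2, Klf1 and Slc4a1 among them, were listed at 0 in all 4 libraries. Gata1, an erythroid and megakaryocyte factor with the highest mean of them, reached 4.44 FPKM, and the globin Hba-a1, named after its values were seen, 5.73 FPKM, both in RBP-J KO replicate 1.

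**Figure D2:**
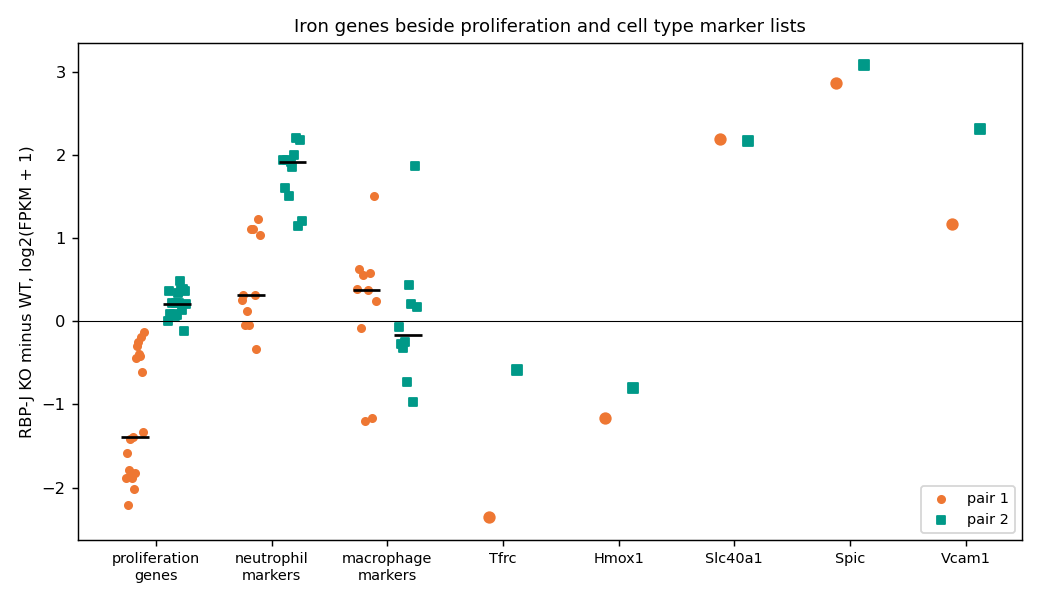
Difference between RBP-J KO and WT on the log2(FPKM + 1) scale (y axis) in pair 1 (circles) and pair 2 (squares), with 1 point per gene and a bar at the median for the proliferation, neutrophil and macrophage lists, and 1 point per pair for 5 iron genes. Proliferation genes lie at a median of -1.39 in pair 1 and 0.21 in pair 2, while Tfrc is below 0 in both pairs and further below in pair 1.

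The FPKM ratio of Slc40a1 to Tfrc was 0.889 and 1.31 in the WT libraries and 20.8 and 8.85 in the RBP-J KO libraries. This ratio combines the differences already given, of genes chosen with those differences known. It was 23.4 times higher in RBP-J KO in pair 1 and 6.75 times higher in pair 2. The larger value goes with the low Tfrc level of RBP-J KO replicate 1, at 196 FPKM. Iron export and uptake were not measured.

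Several of these mRNAs carry iron-responsive elements, stem-loops bound by the iron regulatory proteins Aco1 and Ireb2 when iron is scarce. Bound ahead of the coding sequence they hold back translation, and bound behind it in Tfrc they protect the mRNA. A stem-loop was searched for in the GENCODE M21 transcripts (GRCm38) as a C, 5 bases, the loop CAGTGN and 5 bases that pair with the first 5, on the transcript strand. Among protein-coding genes 0.137% held a match in a 5′ UTR and 0.585% in a 3′ UTR. Matches were found in 4 of the 10 genes, and they are shown because they divide the genes by how iron acts on them. Capitals mark the loop, each site has 27 bases, and the letters are written 5′ to 3′ as DNA.
Slc40a1 5′ UTR: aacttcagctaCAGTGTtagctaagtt
Ftl1 5′ UTR: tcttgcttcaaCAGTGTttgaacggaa
Fth1 5′ UTR: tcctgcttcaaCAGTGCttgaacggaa
Tfrc 3′ UTR, first: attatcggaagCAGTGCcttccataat
Tfrc 3′ UTR, second: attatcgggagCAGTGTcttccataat
Tfrc 3′ UTR, the third: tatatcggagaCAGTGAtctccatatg
Tfrc 3′ UTR, last: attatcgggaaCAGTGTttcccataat
The sites lie at chr1:45925466-45925492 on the minus strand for Slc40a1, at chr7:45459780-45459806 on the minus strand for Ftl1 and at chr19:9982733-9982759 on the plus strand for Fth1. The 4 matches found in Tfrc lie on the plus strand of chromosome 16, between chr16:32631220-32631246 and chr16:32631711-32631737. The search asked for all 5 pairs and the loop CAGTGN, so elements that depart from this form are not shown. The 4 matches need not be all the elements of Tfrc. Of the 3 genes with a 5′ site, only Slc40a1 was at least 1.5-fold higher in RBP-J KO in both pairs. Both ferritins were lower as deposited, though under 1.5-fold in at least 1 pair, and Fth1 by only 1.03-fold in pair 1. After quantile normalization the log2 difference was 0.00 for Fth1 in pair 1 and for Ftl1 in pair 2. There the ranks in WT and RBP-J KO were equal, and the method gives equal ranks equal levels. The mRNA levels of the 3 genes do not report the translation that these sites control. For the regulators only mRNA was measured, and their binding to these sites was not tested. Aco1 was at 119 and 132 FPKM in pair 1, then 144 and 117 FPKM in pair 2. Ireb2 was at 175 and 145 FPKM in pair 1, then 140 and 127 FPKM in pair 2. Both were named after their values were seen.

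The ferritin genes were the most abundant of the 10. Fth1, the heavy subunit that oxidises iron as it enters the shell, was at 36231 and 48721 FPKM in WT against 35114 and 32213 FPKM in RBP-J KO. The RBP-J KO libraries were the lower ones, but by 1.03-fold in pair 1 and by 1.51-fold in pair 2, with WT replicate 2 the highest of the 4 libraries. Ftl1, the light subunit that helps the iron core form, was at 22107 and 22017 FPKM in WT against 15671 and 18715 FPKM in RBP-J KO. Its groups did not overlap, at 1.41-fold lower in pair 1 and 1.18-fold lower in pair 2. The ratio of Fth1 to Ftl1 was 1.64 and 2.24 in pair 1 and 2.21 and 1.72 in pair 2, in opposite directions. After quantile normalization the Ftl1 difference in pair 2 and the Fth1 difference in pair 1 were 0.00 on the log2 scale. These values were fixed by the method, which gives equal ranks equal levels. Ftl1 stood at rank 5 in both libraries of pair 2, and Fth1 at rank 2 in both of pair 1. Ferritin has near-identical gene copies whose reads cannot be assigned with certainty; one of them, Ftl2, was listed at 6460 and 5915 FPKM in WT against 4496 and 5193 FPKM in RBP-J KO.

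Slc48a1 encodes HRG1, which carries heme out of the phagolysosome. It was at 1180 and 1094 FPKM in WT against 899 and 864 FPKM in RBP-J KO. The groups did not overlap, and the difference was 1.31-fold and 1.27-fold in the pairs. This was a small difference beside those of Slc40a1 and Spic.

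Hmox1 encodes heme oxygenase 1, the inducible enzyme that opens the heme ring (GRCm38, chr8:75093621-75100589, plus strand). It was at 3224 and 3234 FPKM in WT against 1439 and 1853 FPKM in RBP-J KO. The WT libraries were nearly equal, at 3229 ± 6.76 FPKM (SD, n = 2), and both RBP-J KO libraries lay far below them, by 2.24-fold in pair 1 and 1.74-fold in pair 2. Hmox1 and Slc40a1, 2 genes of one recycling route, thus differed in opposite directions in both pairs. The FPKM ratio of Slc40a1 to Hmox1, which combines these differences, was 0.277 and 0.425 in WT and 2.83 and 3.32 in RBP-J KO.

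Blvra and Blvrb encode biliverdin reductases, of which Blvra acts on the biliverdin that Hmox1 makes. Blvra, which makes bilirubin, was at 1057 and 888 FPKM in WT against 659 and 764 FPKM in RBP-J KO, or 1.60-fold lower in pair 1 and 1.16-fold lower in pair 2. Blvrb, which reduces flavins and another biliverdin isomer, was at 978 and 1524 FPKM in WT against 1160 and 1781 FPKM in RBP-J KO. Here the groups overlapped, and the ratio inside the pairs was 1.19 and 1.17. Like Slc40a1, Blvrb was higher in replicate 2 in both genotypes, by 1.56-fold in WT and 1.54-fold in RBP-J KO.

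**Figure D3:**
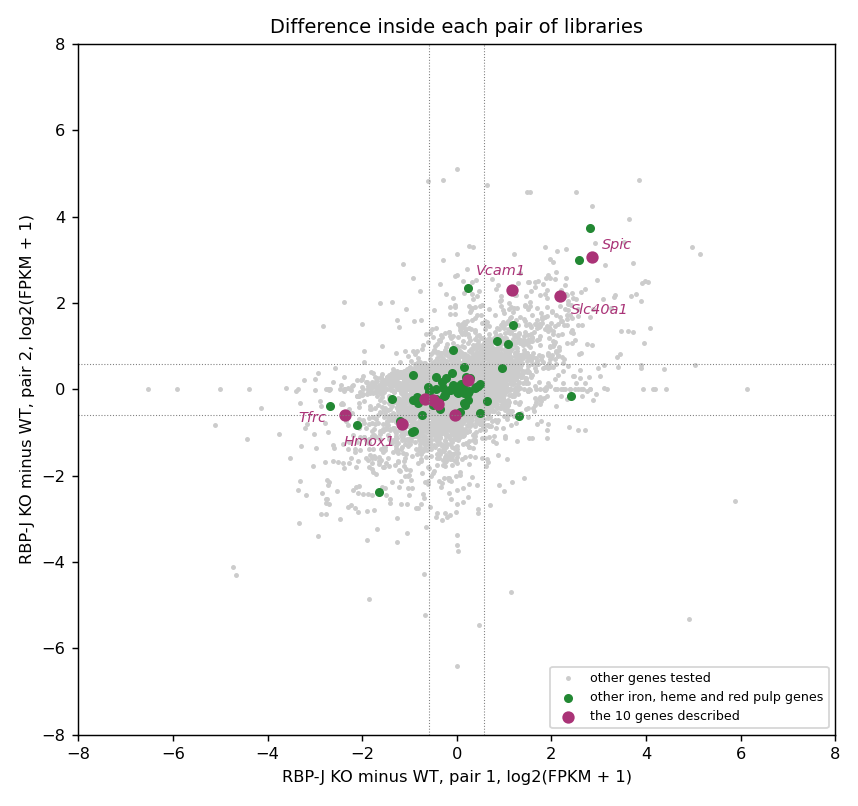
Difference between RBP-J KO and WT on the log2(FPKM + 1) scale in pair 1 (x axis) and pair 2 (y axis), 1 point per gene tested; the 10 genes described are purple, the other iron, heme and red pulp genes green, all others grey, and dotted lines mark 1.5-fold. Spic, Slc40a1 and Vcam1 lie in the upper right, Hmox1 and Tfrc in the lower left, and the other 5 near the centre.

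A wider set of 79 iron, heme and red pulp genes outside the 10 was written down in 6 lists, with earlier results of these data known. Of these genes 76 had an entry and 63 were tested. With limma and Benjamini-Hochberg adjustment over all 11851 genes, 0 of the 63 passed in either direction, as did 0.0% of all genes. Rbpj itself, 6.89-fold and 7.44-fold lower in the pairs, had a limma adjusted p of 0.457. Missing the threshold is therefore no sign of equal levels. At an unadjusted limma p under 0.05 there were 7 of the 63, beside 4.42% of all genes. At least 1.5-fold in both pairs were 5 higher genes (7.94% of the 63, against 3.86% of all genes) and 6 lower genes (9.52%, against 3.63%). The shares of all genes, 3.86% higher and 3.63% lower, are also those to set beside the counts of each list below. Because of how the lists were chosen, these shares and counts are a description and no test of the set. The median log2 difference of the 63 was 0.00 in pair 1 and -0.05 in pair 2.

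Among genes of iron transport and reduction, 2 of 11 were that much higher and 1 that much lower in both pairs. Trf, transferrin itself, was at 394 and 524 FPKM in WT against 840 and 1092 FPKM in RBP-J KO, 2.13-fold and 2.09-fold higher (limma adjusted p = 0.726). Cp, the ferroxidase ceruloplasmin that works beside ferroportin, was low, at 1.68 and 4.24 FPKM in WT against 5.14 and 13.8 FPKM in RBP-J KO. Steap3, the ferrireductase that prepares transferrin-derived iron for leaving the endosome, was at 255 and 155 FPKM in WT against 132 and 77.2 FPKM in RBP-J KO, 1.93-fold and 2.01-fold lower (limma adjusted p = 0.999). In these 3 genes, named for passing 1.5-fold in both pairs, the groups did not overlap. For Cp the gap was narrow, from 4.24 FPKM in WT to 5.14 FPKM in RBP-J KO. Among all genes tested, both RBP-J KO libraries lay above both WT libraries for 11.7% and below them for 18.2%.

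Of the genes for iron sensing, storage and chaperones, 0 of 10 were 1.5-fold higher and 1 was lower in both pairs. That gene was Neo1, which encodes neogenin, the receptor of hemojuvelin, at 22.1 and 9.17 FPKM in WT against 4.37 and 4.71 FPKM in RBP-J KO; with a pseudocount of 5 its pair 2 difference was 1.46-fold. The hepcidin gene Hamp was listed at 0 in all 4 libraries. Hfe, the hemochromatosis protein that binds transferrin receptor 1, was chosen after seeing its values: it was at 201 and 216 FPKM in WT against 392 and 306 FPKM in RBP-J KO, 1.95-fold and 1.42-fold higher.

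Of the genes for uptake of heme and hemoglobin and for heme export, 1 of 7 was at least 1.5-fold higher in both pairs, and 0 were that much lower. Hp, haptoglobin, was at 32.2 and 58.7 FPKM in pair 1, then 2.62 and 6.91 FPKM in pair 2. The neutrophil markers, with 11 of 11 measured above 0 and none at 0 in all libraries, summed to 7107 and 8477 FPKM in pair 1 and to 366 and 1185 FPKM in pair 2, in the same order as Hp; S100a9 had the highest mean of them, at 2435 and 3047 FPKM in pair 1, then 109 and 332 FPKM in pair 2. Their part in the Hp difference was not tested. Cd163, the hemoglobin scavenger receptor, chosen after seeing its values, was at 35.2 and 4.61 FPKM in pair 1, then 58.0 and 44.4 FPKM in pair 2, lower by 7.64-fold and 1.31-fold.

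Heme synthesis had the narrowest range of the 6 lists, with 0 of 8 genes at 1.5-fold in both pairs in either direction and log2 differences between -0.53 and 0.38 over both pairs. Urod and Alad, enzymes of the pathway, were among those with the smallest p. Urod was at 132 and 138 FPKM in pair 1, then 174 and 120 FPKM in pair 2, and Alad at 83.1 and 60.9 FPKM in pair 1, then 75.0 and 75.1 FPKM in pair 2. The erythroid isoform Alas2 was listed at 0 in all 4 libraries.

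Bach1, the heme-sensitive repressor of Hmox1 and Spic, and Nfe2l2, the opposing activator Nrf2, were both named after their values were seen. Bach1 was at 150 and 158 FPKM in WT against 196 and 162 FPKM in RBP-J KO. Nfe2l2 was at 707 and 793 FPKM in WT against 998 and 868 FPKM in RBP-J KO. In their list, 0 of 14 genes were 1.5-fold higher in both pairs and 1 was lower. That was Me1, the malic enzyme that supplies NADPH, at 63.2 and 50.1 FPKM in WT against 33.1 and 25.0 FPKM in RBP-J KO, 1.91-fold and 2.0-fold lower (limma adjusted p = 0.866). The median log2 difference of this list, which also holds Bach1 and Nfe2l2 themselves, was 0.05 in pair 1 and -0.03 in pair 2. The part of these factors in the Hmox1 difference was not tested.

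Other genes of red pulp macrophages went both ways, with 2 of 13 higher and 3 lower by at least 1.5-fold in both pairs. These were 15.4% and 23.1% of the list, against 3.86% and 3.63% of all genes tested. Treml4, an immunoglobulin-like receptor, was at 39.6 and 23.9 FPKM in WT against 241 and 198 FPKM in RBP-J KO (limma adjusted p = 0.423). Axl, a receptor for dying cells, was at 117 and 16.1 FPKM in WT against 825 and 226 FPKM in RBP-J KO. Cd5l, a secreted protein of tissue macrophages, was lower, at 28.2 and 8.41 FPKM in pair 1, then 160 and 30.2 FPKM in pair 2. Mrc1, the mannose receptor, was at 1351 and 813 FPKM in pair 1, then 4263 and 2807 FPKM in pair 2; after quantile normalization or upper-quartile scaling its pair 2 difference was 1.42-fold and 1.44-fold. Lyz2, the lysozyme gene whose locus drives Cre in LysM-Cre mice, was at 218 and 192 FPKM in WT against 94.3 and 115 FPKM in RBP-J KO. As the labels do not say whether the controls carry Cre, the Cre allele and the loss of Rbpj cannot be told apart for Lyz2. The list thus held genes that differed in the same direction as Spic and genes that differed in the opposite one.

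**Figure D4:**
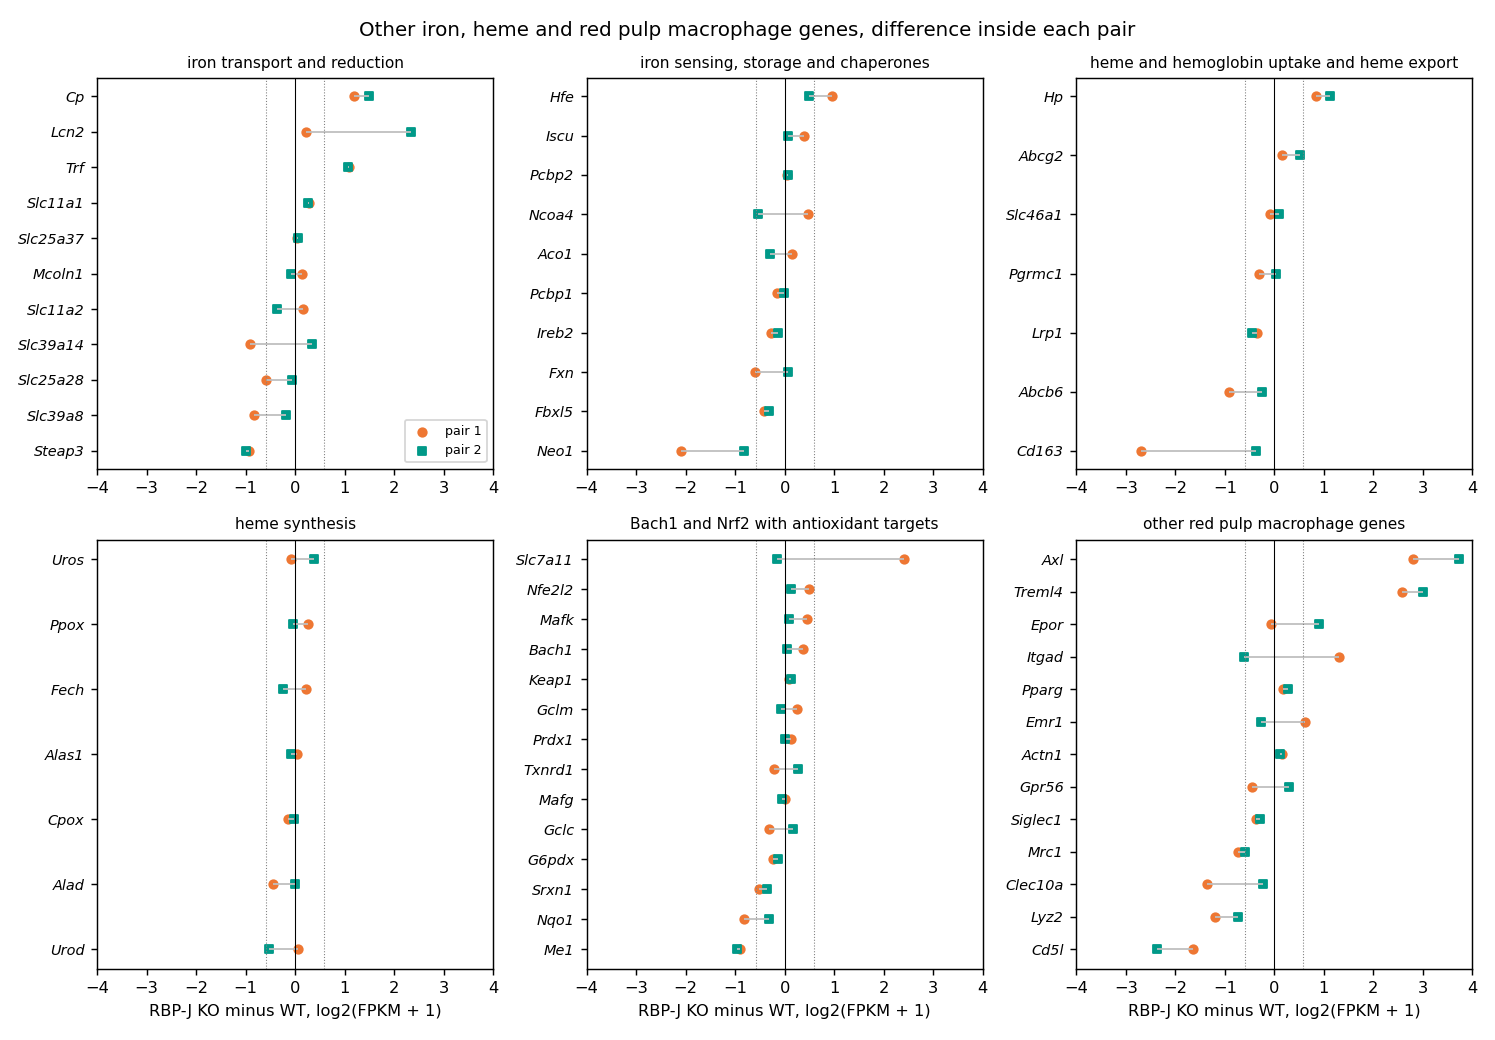
Difference between RBP-J KO and WT on the log2(FPKM + 1) scale (x axis) for the tested genes of the 6 lists (1 heme synthesis gene is not drawn), with circles for pair 1, squares for pair 2 and dotted lines at 1.5-fold. Heme synthesis genes stay between -0.53 and 0.38, whereas Axl lies at 2.81 and 3.73 and Cd5l at -1.64 and -2.37.

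Genes with a profile like that of Spic were ranked by the Euclidean distance of log2(FPKM + 1) values, centred on their mean over the 4 libraries, among 10609 other genes whose mean reached 5 FPKM. The nearest to Spic were Gpr18 (distance 0.30), Treml4 (0.38), Gngt2 (0.57), Pilrb1 (0.60) and Prg4 (0.62). Gpr18 was at 1.38 and 16.9 FPKM in pair 1 and was listed at 0 in WT and stood at 9.53 FPKM in RBP-J KO in pair 2. Gngt2, a G protein subunit, was at 144 and 714 FPKM in pair 1, then 44.5 and 430 FPKM in pair 2.
The nearest gene was Tmem176a for Slc40a1 (0.28), Por for Hmox1 (0.06), Sncaip for Tfrc (0.18) and Cytip for Vcam1 (0.28). It was Cklf for Blvra (0.04), Sord for Blvrb (0.05), Map4k4 for Slc48a1 (0.04), Ssr3 for Ftl1 (0.02) and Dap for Fth1 (0.06). Por, which supplies electrons to heme oxygenase, was at 770 and 736 FPKM in WT against 341 and 440 FPKM in RBP-J KO, beside 3224 and 3234 FPKM against 1439 and 1853 FPKM for Hmox1. Another gene lay at the same rounded distance of 0.06 from Hmox1. Shared control of Por and Hmox1 was not tested.

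Promoters were looked at for the 6 of the 10 genes in the RefSeq promoter table (GRCm38.p6; Spic, Tfrc, Blvra, Blvrb, Ftl1 and Fth1), as the 250 bases ahead of each of the 9 start sites in that table, on both strands. The RBP-J core TGGGAA was found in 2 of the 9, one of Blvrb and one of Fth1, where 21.6% of all 32851 promoters hold it. The PU-box GAGGAA, read by PU.1 and its relative Spi-C, was found in 0 of 9 (23.3% of all), and the antioxidant response core TGACNNNGC in 1 of 9, that of Blvra (10.2% of all). For Spic the table holds 1 start site, which lies inside the GENCODE gene span given above, and the window ahead of it (chr10:88683024-88683273, minus strand) held none of these letter strings. This says nothing of the factors or of other windows.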

How the data were processed

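The tools were TopHat and Cufflinks and the build mm9, per the submitters' processing notes, with versions and annotation not given in the sources used here. For each library the authors deposited 1 table of FPKM, by gene for replicate 1 (22026 rows) and by transcript for replicate 2 (27583 rows); the headers name no unit. Depth is unknown, since the low values gave no whole-read steps, so no counting interval was computed. Transcript rows were summed per symbol (each of the 10 genes has 1), after 25 symbols turned into dates were restored. In R 4.3.3, limma 3.58.1 was fitted to log2(FPKM + 1), a scale that understates low genes. The fit used the 11851 genes whose mean reached 1 FPKM, with a group term alone and a trended variance. Two-sided p were Benjamini-Hochberg adjusted (threshold 0.05). The code was also run on simulated data, which gave all genes the same spread and no shift shared by a replicate number. These libraries are unlike that, so the simulation checks the code and not how the fit does on these data. Fold differences inside pairs are FPKM ratios; calls use the log2 scale. With 2 libraries per group, p reflects only how far these libraries spread, which may be technical.

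The 10 genes and all lists were chosen with earlier results of these data known. Outside the 10, genes named are those at least 1.5-fold in 1 direction in both pairs, otherwise the 3 of a list with the smallest p, and the highest gene of a marker list that is described; any other name is marked as chosen with its values in view. One gene of the heme synthesis list is not reported here. Figures were drawn with matplotlib 3.10.9. Positions are from GENCODE M21 (GRCm38), since the mm9 tables hold none.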

Additional observations from a re-analysis of the deposited data

How the results depend on the processing

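Alternatives were other pseudocounts (0.1 and 5), no minimum level or a minimum mean of 5 FPKM, quantile and upper-quartile scaling, the highest transcript per symbol, no variance trend, a replicate block and leaving out each library. Under all of these limma called 0 genes at the adjusted threshold. With the replicate number as a block, 1557 genes had an unadjusted p under 0.05, against 524 without it, and 0 passed adjustment. Deviations from the group means correlated within a number over genes (r = 0.639). With 2 pairs and no label on their origin, the main limma fit did not use the numbers as pairs. The 1.5-fold calls do compare inside each number, so the calls and the limma p rest on different designs. With a pseudocount of 5 the count of genes at least 1.5-fold lower in both pairs was 282, against 430, and Neo1 lost its call. Of 120 differences of the 10 genes recomputed under alternatives, 118 kept their direction. The other 2 were of Blvrb, whose log2 difference of 0.24 was -0.08 without WT replicate 1 and -0.07 without RBP-J KO replicate 2, since the groups then hold unequal replicate numbers; leaving out each library in turn gave -0.08 to 0.55. The 1.5-fold call was lost for Tfrc under quantile and upper-quartile scaling, and was kept there by Spic, Slc40a1, Hmox1 and Vcam1. Without depth, the precision of low values such as those of Vcam1 and Cp is not known.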

Other observations

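Some genes of iron-handling and tissue macrophages also differed between the replicate numbers, in the same direction in both genotypes. Mrc1 was 3.16-fold higher in replicate 2 in WT and 3.45-fold higher in RBP-J KO, and Cd5l 5.67-fold and 3.60-fold higher. Axl went the other way, at 7.28-fold higher in replicate 1 in WT and 3.66-fold higher in RBP-J KO, and so did Spic, by 2.03-fold and 1.65-fold. The genes named from here on were chosen with their values in view. Epor, which binds erythropoietin, stood at 2.91 and 2.72 FPKM in pair 1, then 11.6 and 22.5 FPKM in pair 2. With 1 library in each combination none of this was tested, and sex, table layout and any other feature that the replicate number carries cannot be told apart.

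Lcn2, a siderophore-binding protein that neutrophils also store, was at 290 and 339 FPKM in pair 1, then 8.42 and 46.8 FPKM in pair 2, beside summed neutrophil markers of 7107 and 8477 FPKM and of 366 and 1185 FPKM. Slc7a11, the cystine carrier among the Nrf2 targets, was at 4.51 and 28.2 FPKM in pair 1, then 5.64 and 4.94 FPKM in pair 2, a difference carried by RBP-J KO replicate 1. Slc11a1, which pumps iron out of phagosomes, was 1.22-fold and 1.20-fold higher in RBP-J KO in the pairs, with overlapping groups.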
